A study of Homo sapiens with 1 sample.

Results

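The 10 genes described here, TWIST1, SNAI1, SNAI2, ZEB1, ZEB2, FN1, TFAP2A, PAX3, MSX1 and PRRX1, are regulators and a matrix product of the change from epithelium to mesenchyme and of the neural crest. They were chosen by name, with earlier results of these data known, and all 10 were found among the 33538 genes listed for the library. The study asked how HAR123, a human accelerated region, affects the making of neural progenitor cells (NPCs). The 1 library came from H9, an established human embryonic stem cell line, with the human form of HAR123 and the genotype WT, after differentiation towards NPCs. Rock inhibitor was in the medium at the start, and Dorsomorphin and SB431542, which block BMP and TGF-beta receptors, were present until the embryoid bodies were replated without them on Matrigel with N2 and Gem21. The cells were taken before rosettes would be selected. Cells of 2 clones were mixed before loading and cannot be told apart, and no library of another genotype was used here.

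The counts are unique molecular identifiers (UMIs), each standing for 1 captured RNA molecule. Of 14726 barcodes, 13925 with 2000 to 10000 detected genes and a mitochondrial share below 0.1 were kept. They were placed in 3 groups by genes outside the 10. Contractile cells held 5 or more UMIs of ANXA1, TFPI2 and CTGF together per 10000 UMIs (1584 cells, 11.4%). TAGLN-high cells held 10 or more UMIs of TAGLN per 10000 but lay below the first limit (1044 cells, 7.50%). The remaining 11297 cells (81.1%) are called other cells. The median cell held 47217 UMIs in the contractile group, 25510 in the TAGLN-high group and 16449 among the other cells. Levels are therefore given as UMIs per 1000000 UMIs of the group (CPM), and shares of cells were read after each cell had been thinned to the same number of UMIs. With 1 library there was no replicate and no test. Every interval is a 95% interval that covers counting error only, and a difference between groups is one between cells of this library.

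Epithelial cells that become mesenchymal lose their junctions and gain motility and a fibrous matrix. SNAI1 and SNAI2 (zinc-finger proteins), ZEB1 and ZEB2 (zinc-finger and homeodomain proteins) and TWIST1 (a basic helix-loop-helix protein) are the classical factors of this change and repress the epithelial cadherin gene CDH1, while FN1 encodes fibronectin, a matrix protein of mesenchyme. TFAP2A, PAX3 and MSX1 act at the border of the neural plate from which the neural crest arises, and PRRX1 is a homeobox gene of limb and craniofacial mesenchyme. Several of these genes also act in neural tissue without such a change: ZEB1 and ZEB2 are expressed in neural progenitors and neurons.

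ZEB1 and ZEB2 are the best known targets of the miR-200 microRNAs, which hold epithelial cells in their state. The family is shown here because the word that pairs with its seed is frequent in these 2 of the 10 genes. The mature sequences below are those of RefSeq (GRCh38.p14), 5′ to 3′, with the seed (bases 2 to 8) in capitals. hsa-miR-200b-3p, hsa-miR-200c-3p and hsa-miR-429 share a seed, and so do hsa-miR-200a-3p and hsa-miR-141-3p.
hsa-miR-200b-3p: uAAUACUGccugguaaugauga
hsa-miR-200c-3p: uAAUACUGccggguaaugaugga
hsa-miR-429: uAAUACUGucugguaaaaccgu
hsa-miR-200a-3p: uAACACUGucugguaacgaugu
hsa-miR-141-3p: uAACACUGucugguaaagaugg

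The DNA word that pairs with the seed of hsa-miR-200b-3p is CAGTATT. It was found 6 times in the 2540 bases of the 3′ untranslated region of ZEB1 and 5 times in the 5370 bases of that of ZEB2 (canonical transcripts of GENCODE v44). Of 19538 coding transcripts with such a region, 16.1% held the word at least once, 0.0102% held it 6 times or more and 0.0409% held it 5 times or more, without regard to length. FN1 and TFAP2A held it 2 times each, SNAI2 1 time, and TWIST1, SNAI1, PAX3, MSX1 and PRRX1 did not hold it. The word for the seed of hsa-miR-200a-3p, CAGTGTT, was found 3 times in ZEB1, 4 times in ZEB2, 2 times in TFAP2A and 1 time in PAX3, and 18.2% of all transcripts held it. The first CAGTATT after the stop codon is given below for both genes, 5′ to 3′ in the direction of the gene, with the paired word in capitals. The site of ZEB1 lies at chr10:31527624-31527648 on the plus strand and that of ZEB2 at chr2:144389044-144389068 on the minus strand (GRCh38).
ZEB1 site: ttatcttatCAGTATTatcactctt
ZEB2 site: accatacatCAGTATTtttattatt

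MicroRNAs are not captured by this assay. The listed host transcript of the miR-200c and miR-141 genes, MIR200CHG, had 0 UMIs in all 3 groups, so that contractile cells may hold up to 0.0391 CPM, TAGLN-high cells up to 0.102 CPM and other cells up to 0.0144 CPM (3 counts). CDH1, the epithelial cadherin gene, was near 0 everywhere, at 0.196 CPM in contractile, 0.239 CPM in TAGLN-high and 0.177 CPM in other cells (59 UMIs in all).

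SNAI2 was the snail-family gene with the most UMIs, 1843 in the kept cells. Its level was 15.6 CPM (14.7 to 16.5) in contractile cells, 6.17 CPM (5.30 to 7.14) in TAGLN-high cells and 2.23 CPM (2.03 to 2.44) in other cells. The 3 intervals did not overlap. Contractile cells thus stood 7.00-fold (6.28 to 7.81) above other cells and TAGLN-high cells 2.77-fold (2.32 to 3.29). At full depth 559 of the 1584 contractile cells held a UMI of SNAI2, and thinned to 10000 UMIs the shares were 12.2%, 5.56% and 1.81%. Contractile cells supplied 64.9% of all SNAI2 UMIs against 24.4% of all UMIs.

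SNAI1 followed the same order at a lower level. It stood at 2.27 CPM (1.94 to 2.63) in contractile, 0.750 CPM (0.470 to 1.14) in TAGLN-high and 0.479 CPM (0.390 to 0.583) in other cells. The difference between contractile and other cells was 4.73-fold (3.68 to 6.11), while the TAGLN-high cells were 1.56-fold (0.939 to 2.50) against the other cells, an interval that includes 1.

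TWIST1 was concentrated in the contractile group, which held 234 of its 283 UMIs (82.7%). Its level was 3.05 CPM (2.67 to 3.47) there, 0.239 CPM (0.0959 to 0.492) in TAGLN-high cells and 0.201 CPM (0.145 to 0.272) in other cells, so that contractile cells stood 15.1-fold (10.9 to 21.6) above other cells while the interval of TAGLN-high against other cells included 1 (1.19-fold, 0.449 to 2.66). Only 124 contractile cells (7.83%) held a UMI of TWIST1, and 1 of them held 18. The other cells held TWIST1 at 6.60% (4.64 to 9.20) of the contractile level, SNAI2 at 14.3% (12.8 to 15.9) and SNAI1 at 21.1% (16.4 to 27.2). For 3 genes abundant in contractile cells this share was 0.517% for NPPB, 0.699% for COL8A1 and 1.47% for SPP1, all below that of TWIST1. It was 2.49% for TAGLN, which the groups were chosen by, 7.30% for MYL9 and 10.6% for ACTA2. TAGLN-high cells held MYL9 at 66.1% and ACTA2 at 109% of the contractile level, so these 2 genes were not confined to contractile cells. The part of free RNA in these levels was not tested.

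ZEB1 ran the opposite way. Its level was 138 CPM (135 to 140) in contractile cells, 211 CPM (206 to 216) in TAGLN-high cells and 253 CPM (251 to 255) in other cells. Contractile cells were thus at 0.544 (0.533 to 0.555) of the level of other cells, although counted as UMIs per cell without regard to depth they held 1.43 times as many. ZEB1-AS1, a gene on the opposite strand that overlaps ZEB1, fell in the same order, from 18.8 CPM in other cells to 9.31 CPM and 4.95 CPM in TAGLN-high and contractile cells. The study ran Cell Ranger, the counting program, with default parameters and does not name the strand of counting. How reads of the overlapping parts were assigned was not checked here. TWIST1, SNAI2, ZEB2, TFAP2A and PAX3 also overlap annotated genes on the opposite strand. ZEB1, ZEB2 and PRRX1 each overlap an annotated gene on the same strand.

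ZEB2 did not share the order of ZEB1. It was highest in contractile cells at 103 CPM (101 to 106), lowest in TAGLN-high cells at 41.1 CPM (38.9 to 43.5), and between them in other cells at 62.2 CPM (61.1 to 63.3). In contractile cells ZEB2 was 1.66-fold (1.62 to 1.71) the level of other cells and 2.51-fold (2.37 to 2.67) that of TAGLN-high cells. TAGLN-high cells were at 0.661 (0.623 to 0.702) of other cells, or 1.01 times in UMIs per cell.

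FN1 had the same shape as ZEB2, with 159 CPM (157 to 162) in contractile, 83.2 CPM (80.0 to 86.6) in TAGLN-high and 112 CPM (110 to 113) in other cells. Contractile cells were 1.43-fold (1.40 to 1.46) above other cells, and TAGLN-high cells were at 0.746 (0.716 to 0.778) of them, or 1.14 times in UMIs per cell. At 10000 UMIs a cell the ratio of contractile to other cells was 1.31 (1.25 to 1.37), and the lowest among the alternatives tried was 1.04. At that depth 62.3% (59.8 to 64.8) of contractile, 52.6% of TAGLN-high and 61.4% of other cells held a UMI of FN1. The share of contractile cells was thus near that of other cells. At full depth 76.8% of other cells (median 16449 UMIs) held a UMI of FN1, against 19.0% of the 84 among them that were high in STMN2, a gene of newborn neurons (median 12975 UMIs). Thinned to 10000 UMIs the shares were 61.4% and 15.2%. The highest contractile cell held 272 UMIs of FN1, the highest TAGLN-high cell 16 and the highest other cell 88.

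The promoters of ZEB1 and ZEB2 are set side by side because snail and ZEB proteins bind E-boxes, and the levels of the 2 genes ran apart. The E-box searched was CAGGTG or its reverse complement CACCTG, on both strands, in the 250 bases before each start of transcription in RefSeq (GRCh38.p14). Of 35116 starts, 17.5% held one. Of the 10 members 7 were matched, all but TWIST1, SNAI1 and SNAI2. ZEB1 has 7 such starts, of which 2 held an E-box and 5 did not, and the single start of ZEB2 held none. FN1, TFAP2A (2 starts), PAX3, MSX1 and PRRX1 held none either. A match is a description of letters, not of binding. Of the ZEB1 windows the one with the most E-boxes (2) is shown. The windows lie at chr10:31318966-31319215 on the plus strand and chr2:144520120-144520369 on the minus strand, with the E-boxes in capitals.
ZEB1 promoter: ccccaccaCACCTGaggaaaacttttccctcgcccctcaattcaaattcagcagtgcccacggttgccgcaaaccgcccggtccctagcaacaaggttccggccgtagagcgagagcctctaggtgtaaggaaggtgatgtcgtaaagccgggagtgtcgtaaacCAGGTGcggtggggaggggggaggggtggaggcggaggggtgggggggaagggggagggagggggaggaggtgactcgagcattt
ZEB2 promoter: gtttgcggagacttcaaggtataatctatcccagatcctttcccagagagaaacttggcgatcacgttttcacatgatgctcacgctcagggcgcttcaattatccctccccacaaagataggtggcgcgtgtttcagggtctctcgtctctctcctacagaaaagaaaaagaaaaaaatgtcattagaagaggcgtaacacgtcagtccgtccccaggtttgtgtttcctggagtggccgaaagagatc

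**Figure D1:**
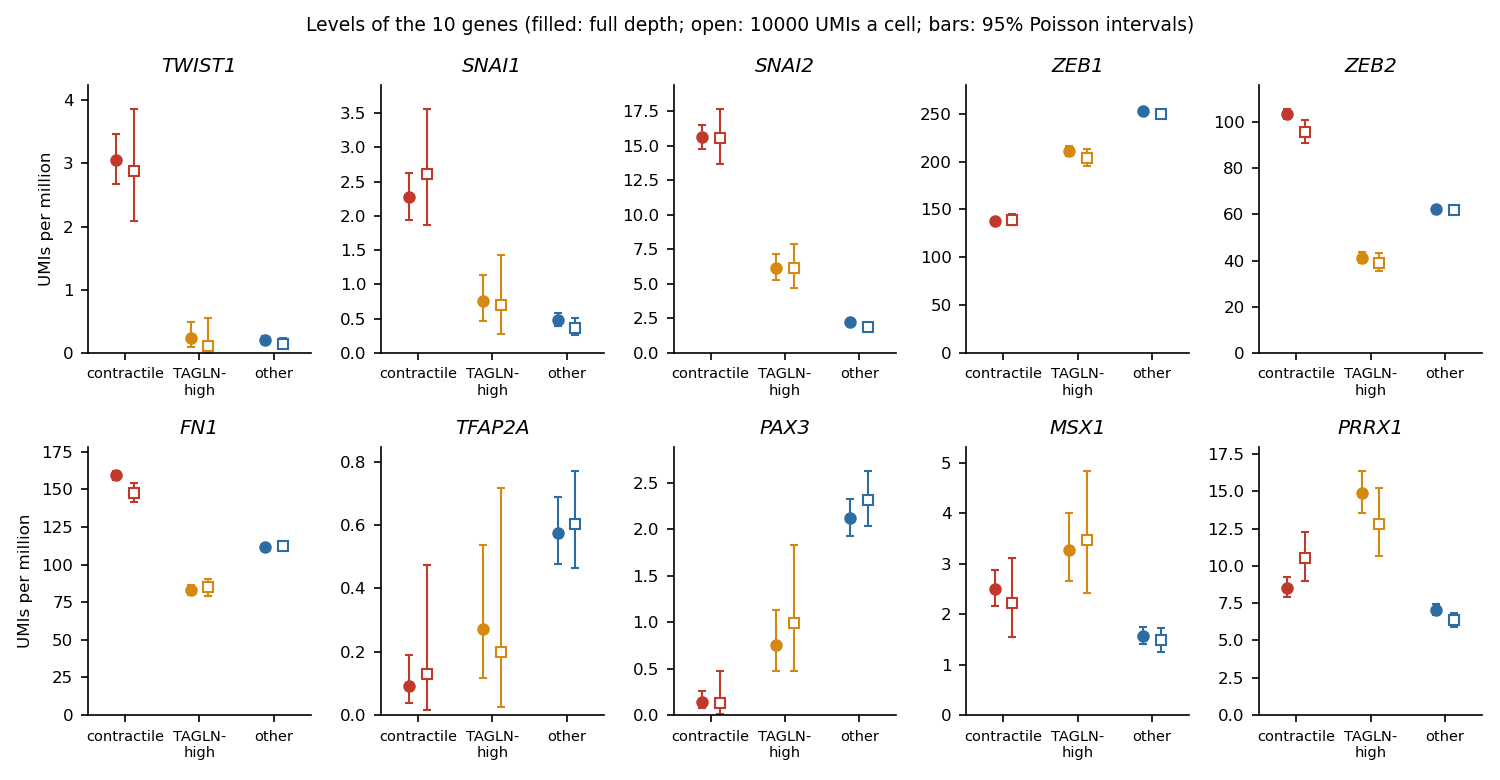
Levels of the 10 genes in contractile, TAGLN-high and other cells, in CPM, at full depth (filled circles) and after thinning each cell to 10000 UMIs (open squares), with 95% Poisson intervals that cover counting error only. SNAI2 steps down from 15.6 to 6.17 and 2.23 while ZEB1 steps up from 138 to 253, and the TAGLN-high cells are lowest for ZEB2 and FN1 and highest for MSX1 and PRRX1.

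PRRX1 was highest in the TAGLN-high cells. Its level was 14.9 CPM (13.5 to 16.4) there, 8.55 CPM (7.91 to 9.23) in contractile cells and 7.06 CPM (6.71 to 7.43) in other cells. TAGLN-high cells stood 2.11-fold (1.89 to 2.35) above other cells, and contractile cells were at 0.574 (0.508 to 0.649) of TAGLN-high cells, or 0.989 times in UMIs per cell. Thinned to 5000 UMIs a cell the latter ratio was 0.548 (0.393 to 0.764), and thinned to 10000 it was 0.822 (0.648 to 1.04), an interval that includes 1. MSX1 was likewise highest in TAGLN-high cells, at 3.27 CPM (2.65 to 3.997), against 2.50 CPM (2.16 to 2.88) for contractile cells and 1.57 CPM (1.41 to 1.75) for other cells. The intervals of TAGLN-high and contractile cells overlapped, and in UMIs per cell contractile cells held 1.32 times as much as TAGLN-high cells. TAGLN-high cells stood 2.08-fold (1.64 to 2.62) above other cells for MSX1. With the limit of the contractile score at 10 in place of 5, the MSX1 ratio of contractile to other cells went from 1.66 to 0.662 at 5000 UMIs a cell, and it was 0.809 among cells with 15000 to 40000 UMIs, so its side of 1 depends on which cells are counted. Among cells of that depth TAGLN-high cells stood 1.86-fold above other cells for PRRX1 and 1.76-fold for MSX1, both under the 2-fold limit used below. For ZEB2, FN1, PRRX1 and MSX1 the level of the TAGLN-high cells lay outside the range between contractile and other cells.

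PAX3, a paired-box gene of the dorsal neural tube and crest, was the member that fell most in contractile cells. Its level was 0.143 CPM (0.0716 to 0.257) there, 0.750 CPM (0.470 to 1.14) in TAGLN-high cells and 2.12 CPM (1.93 to 2.33) in other cells. Contractile cells were at 0.0677 (0.0335 to 0.122) and TAGLN-high cells at 0.354 (0.220 to 0.543) of the level of other cells, and the other cells held 93.1% of all 475 UMIs.

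TFAP2A was the rarest member, with 135 UMIs in 109 cells. Its level was 0.0912 CPM (0.0367 to 0.188) in contractile, 0.273 CPM (0.118 to 0.537) in TAGLN-high and 0.575 CPM (0.477 to 0.688) in other cells. Of the 120 UMIs in other cells, 28 lay in the 84 cells with STMN2, a gene of newborn neurons, at 10 or more UMIs per 10000. The level in these STMN2-high cells was 23.0 CPM (15.3 to 33.3), and 15 of the 84 held a UMI. They held 0 UMIs of TWIST1, SNAI1, SNAI2 and PAX3, which allows up to 2.47 CPM for each, and they were at 368 CPM for ZEB1, 104 CPM for ZEB2 and 23.0 CPM for FN1, so FN1 stood at 0.206 (0.137 to 0.298) of the level of all other cells.

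The fixed size rule counted a member as higher or lower from 2-fold on at 5000 UMIs a cell, among genes with at least 50 UMIs at that depth. Of the 10 members, 8 had 50 UMIs, and TWIST1 (41) and TFAP2A (44) did not. Between contractile and other cells 2 members were higher (SNAI1 and SNAI2), against 7.2% of all 16619 genes, and 1 was lower (PAX3), against 24.1% of all genes. Between TAGLN-high and other cells 3 were higher (SNAI2, MSX1 and PRRX1), against 3.16%, and 1 was lower (PAX3), against 9.05%. Between contractile and TAGLN-high cells 3 were higher (SNAI1, SNAI2 and ZEB2), against 5.81%, and 1 was lower (PAX3), against 13% of all genes. The median gene was itself shifted, by -0.35 on the log2 scale between contractile and other cells and by -0.12 between TAGLN-high and other cells. Beside these the median of the 8 members was 0.51 and 0.08. SNAI2 lay above 98.2% of all genes between contractile and other cells and above 98.8% between TAGLN-high and other cells, ZEB1 above 27.7% and 37.3%, and PAX3 above 0.903% and 7.64%. SNAI1 rests on few counts here, with 30 UMIs in contractile, 4 in TAGLN-high and 32 in other cells at 5000 UMIs a cell. It reached the minimum of 50 UMIs only with the contractile cells, in which it was higher. Its place in the counts that compare contractile cells therefore depended on the filter and lends them no support. In the mean over all possible draws, an alternative added after the data were seen, SNAI1 had under 50 UMIs, and at 2500 UMIs a cell its ratio of contractile to other cells was 1.58 in place of 6.68. In that mean MSX1 was at 2.71 CPM in TAGLN-high and 1.52 CPM in other cells, under 2-fold, so that 2 members were higher between them. PAX3 rests on few counts too, with 1, 5 and 115 UMIs in contractile, TAGLN-high and other cells at 5000 UMIs a cell. It reached the minimum only through the other cells, in which it was high. Its place in the counts against them lends no support. Its interval there included 1 for contractile against TAGLN-high cells (up to 1.18) and for TAGLN-high against other cells (up to 1.13). At full depth contractile cells held PAX3 at 0.191 (0.0837 to 0.411) of the TAGLN-high level. The call of PAX3 as lower in TAGLN-high cells was lost with a TAGLN limit of 5 or 20.

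**Figure D2:**
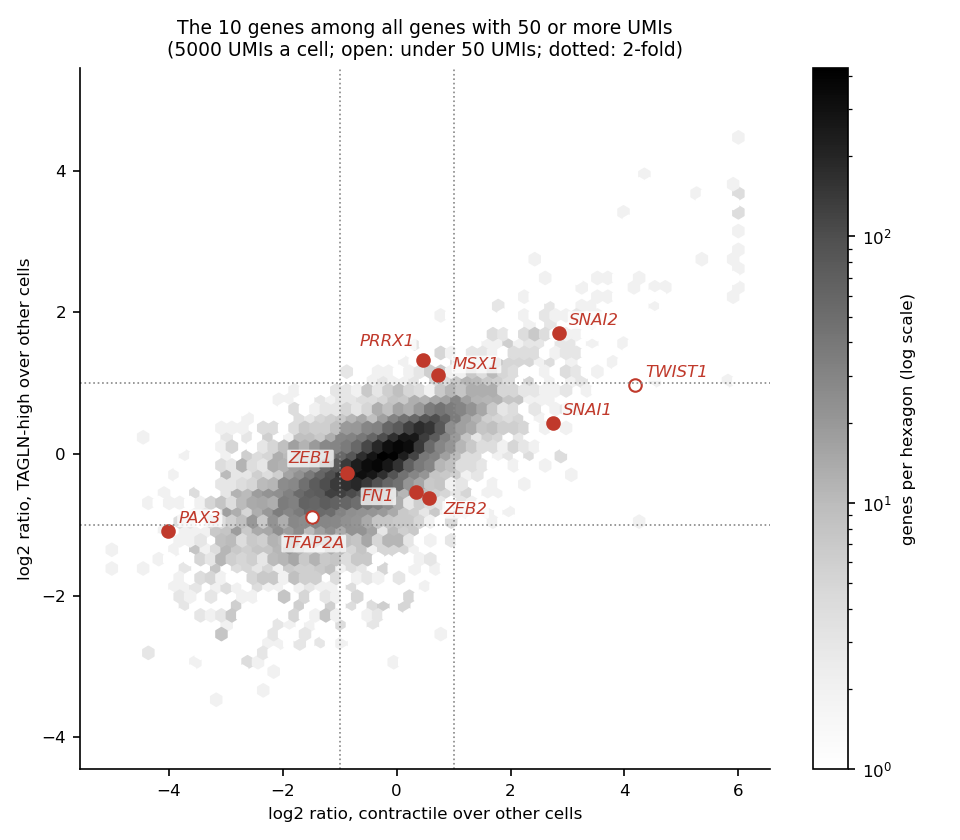
Each hexagon counts genes with 50 or more UMIs by their log2 ratio of contractile to other cells (x axis) and of TAGLN-high to other cells (y axis) at 5000 UMIs a cell, with genes beyond the axes drawn at the edge and genes with no UMI in a group left out. Red circles mark the 10 genes (open: under 50 UMIs). SNAI2, SNAI1 and TWIST1 lie to the right, PAX3 to the left, and PRRX1 and MSX1 above the main cloud.

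Along the summed level of ANXA1, TFPI2 and CTGF the members changed in different places. SNAI2 rose from 2.06 CPM in cells with none of the 3 genes to 7.50 CPM at 2 to 5 UMIs per 10000, 11.8 CPM at 5 to 10 and 17.3 CPM (16.1 to 18.7) at 20 to 50. TWIST1 was at or below 0.555 CPM in every range below 5, and then at 2.39 CPM (1.60 to 3.43), 4.34 CPM (3.55 to 5.26) and 2.50 CPM (2.02 to 3.05) in the ranges 5 to 10, 10 to 20 and 20 to 50. SNAI1 went from 0.454 CPM with none to 2.76 CPM at 10 to 20.

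PRRX1 and MSX1 peaked in the middle of the scale. PRRX1 rose from 6.55 CPM with none to 17.6 CPM (15.5 to 19.9) at 2 to 5 and 16.5 CPM (14.3 to 19.0) at 5 to 10, and was back at 5.66 CPM (4.94 to 6.46) at 20 to 50. MSX1 rose from 1.31 CPM to 6.83 CPM (5.44 to 8.46) at 5 to 10 and was 0.824 CPM (0.563 to 1.16) at 20 to 50. The intermediate cells were thus richest in both homeobox genes, on either side of the limit that divides the groups.

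ZEB1 fell in each range above 1, from 252 CPM with none to 117 CPM at 20 to 50 and 99.8 CPM (85.6 to 116) at 50 or more, next to SOX2, a progenitor gene, which went from 440 CPM to 86.7 CPM. ZEB2 dipped from 62.2 CPM to 49.8 CPM at 2 to 5 and then climbed to 119 CPM at 20 to 50. FN1 dipped from 114 CPM to 93.3 CPM at 2 to 5 and stood at 173 CPM at 20 to 50. PAX3 was at 2.14 CPM with none, 0.486 CPM (0.195 to 1.00) at 2 to 5 and 0.103 CPM (0.0280 to 0.264) at 20 to 50. CDH2, the neural and mesenchymal cadherin, rose over the whole scale, from 741 CPM to 980 CPM at 20 to 50, and VIM from 762 CPM to 4770 CPM. Median depth moved with the score, from 15756 UMIs with none to 53839 UMIs at 20 to 50, and its part in these profiles was not tested. The range of 50 or more held 36 cells, in which SNAI2 was at 5.71 CPM (2.74 to 10.5).

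**Figure D3:**
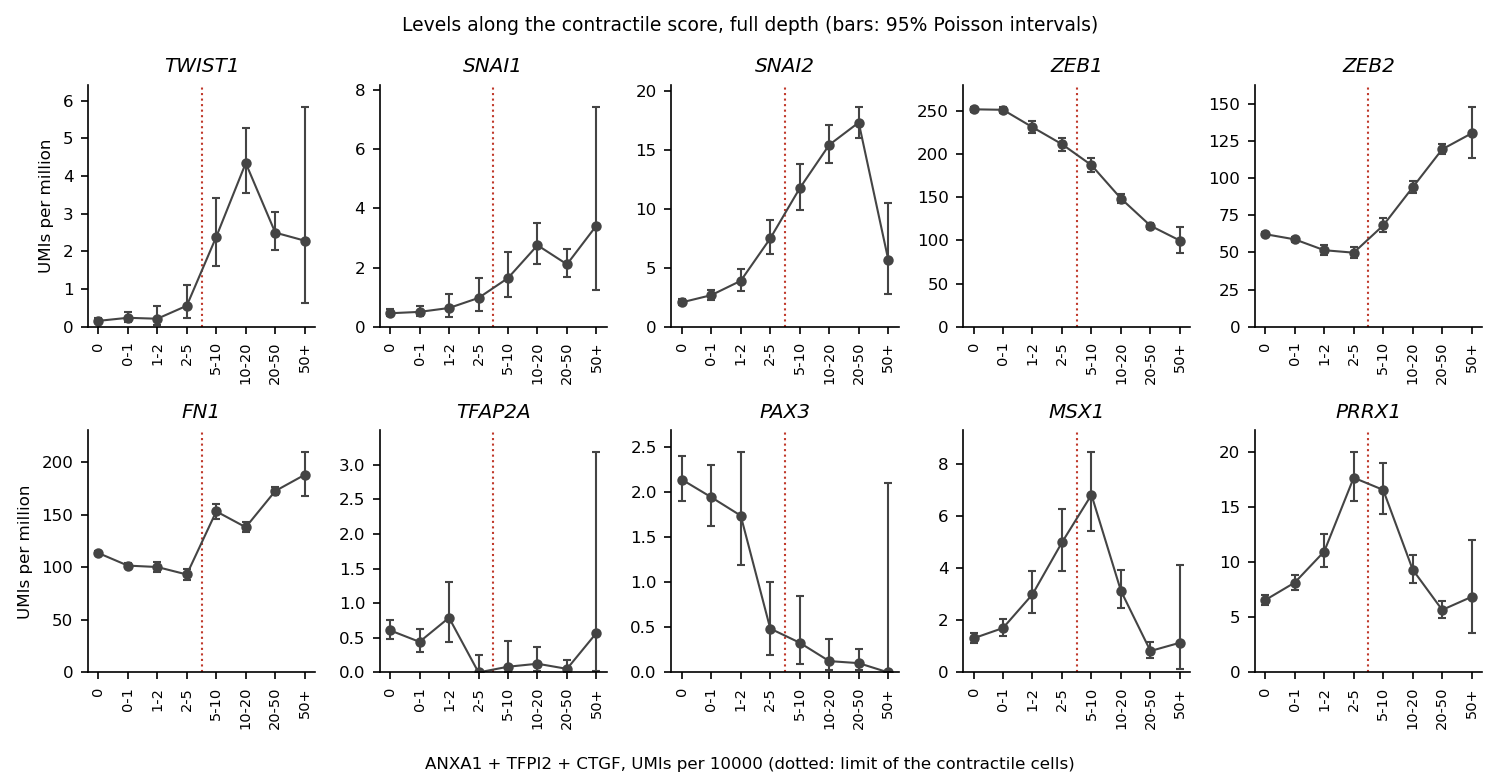
Levels of the 10 genes (CPM, full depth, 95% Poisson intervals) in 8 ranges of the summed ANXA1, TFPI2 and CTGF level per 10000 UMIs, with the contractile limit of 5 dotted. TWIST1 and SNAI2 rise across the limit, PRRX1 peaks at 17.6 and MSX1 at 6.83 beside it, and ZEB1 and PAX3 fall.

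The next comparison asked how often single cells held several of these genes. Thinned to 5000 UMIs, 12.1% (10.5 to 13.8) of contractile, 7.48% (5.96 to 9.25) of TAGLN-high and 9.48% (8.95 to 10.0) of other cells held a UMI of 3 or more members. The mean over all draws, which needs no random choice, was 11.3%, 6.79% and 8.81%. If the members were spread over the cells of a group without regard to each other, the product of their single shares would give 10.6%, 6.14% and 8.45%. The observed shares were thus near what the single levels give, and they rested on the 3 abundant genes. In the draw the product lay inside the interval for contractile (11.4%) and TAGLN-high cells (6.69%) and below it for other cells (8.77%). For 4 or more members the draw gave 2.02% (1.39 to 2.85) of contractile cells and the product 1.21%. For TAGLN-high and other cells the product of 4 or more lay inside the interval. No mean over all draws was computed for 4 or more. In the draw to 10000 UMIs the product lay inside the interval in each group, for 3 or more and for 4 or more. There 7.19% (5.95 to 8.61) of contractile cells held 4 or more, against 6.55%. Of other cells 26.8% (26.0 to 27.7) held 3 or more, against 26.5%. Without FN1 the draw gave 2.91%, 1.25% and 1.13%, and without FN1, ZEB1 and ZEB2 it gave 0, 0 and 2 cells with 3 or more members.

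For the 7 rarer genes, that is without ZEB1, ZEB2 and FN1, 10000 UMIs a cell gave 22.9%, 18.9% and 10.98% of cells with at least 1 of them as the mean over all draws. Cells with at least 2 were 2.44% of contractile, 2.02% of TAGLN-high and 0.564% of other cells, where the product of single shares gives 2.05%, 1.34% and 0.462%. In the single draw, which gives a counting interval, the product lay inside it for contractile cells (2.88%, 2.10 to 3.84, against 2.33%) and other cells (0.499%, 0.374 to 0.652, against 0.453%) and below it for TAGLN-high cells (2.58%, 1.69 to 3.76, against 1.20%). For TAGLN-high cells this draw lay above the mean over all draws (2.02%), which has no interval here. In the draw to 5000 UMIs the product lay inside the interval for these cells (0.575%, 0.211 to 1.25, against 0.517%).

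**Figure D4:**
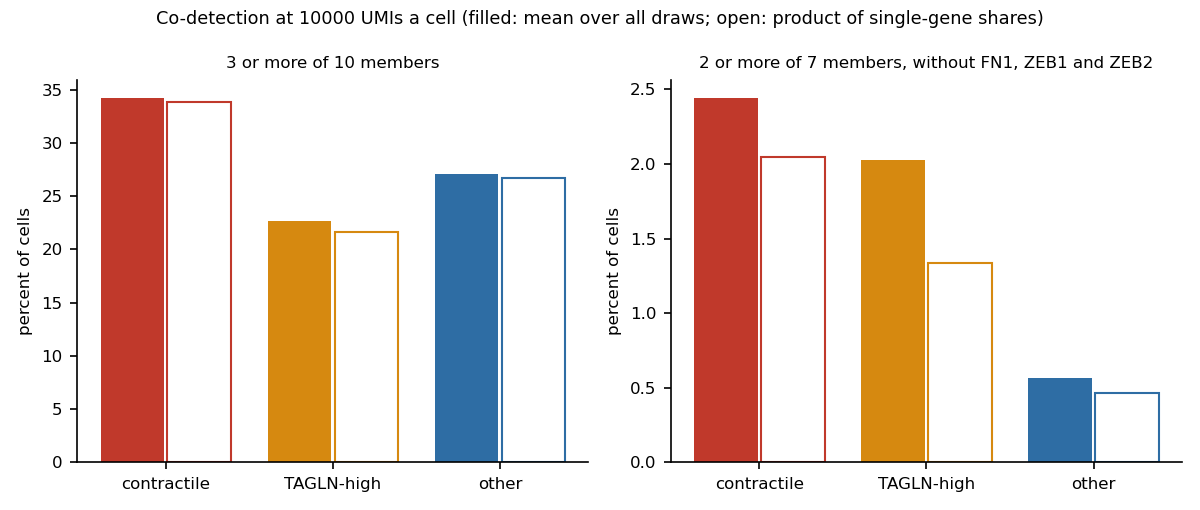
Percent of cells in each group with 3 or more of the 10 genes (left) and with 2 or more of the 7 rarer genes (right) at 10000 UMIs a cell, as the mean over all draws (filled), beside the product of the single-gene shares (open). The pairs of bars on the left differ little, and on the right the widest gap is that of the TAGLN-high cells, 2.02% against 1.34%.

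Pairs with an expected number of at least 5 cells at 10000 UMIs numbered 19 in contractile, 15 in TAGLN-high and 27 in other cells. Over all draws their ratio to the product of shares ran from 0.919 to 1.22, from 0.951 to 1.47 and from 0.823 to 1.69. In the single draw 1 of the 19 pairs, 1 of the 15 and 0 of the 27 had an interval without 1. The highest over all draws in other cells was MSX1 with PRRX1 (1.69), which had 8 cells in the draw where the product gave 7.57 (ratio 1.06, 0.456 to 2.08). For the same pair the ratio was 2.39 in TAGLN-high and 1.81 in contractile cells, although fewer than 5 cells were expected there. At full depth, where deeper cells hold more of every gene, 16 contractile, 20 TAGLN-high and 44 other cells held both, and the product of shares gave 15.2, 10.9 and 24.3. The highest in TAGLN-high cells was SNAI2 with PRRX1 (1.47), the 1 pair there with an interval without 1, with 14 cells in the draw where the product gave 5.51 (ratio 2.54, 1.39 to 4.27). TWIST1 and SNAI2 shared 64 contractile cells at full depth, where the product gave 43.8. TFAP2A and PAX3, both factors of the plate border, shared 1 cell, and the product gave 3.00 among other cells.

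That cell stood apart. It was the 1 kept cell with 3 or more of SOX10, TFAP2B, FOXD3, TFAP2A and PAX3, a combination chosen after values had been seen, and it held all 5. It lay among the other cells, with 22093 UMIs, 5868 genes and no UMI of TAGLN or of the contractile score genes. It held 14 of the 19 UMIs of TFAP2B in the library's kept cells and 2 of the 3 UMIs of FOXD3, with 3 of SOX10, 2 of TFAP2A, 4 of PAX3, 3 of SNAI2, 1 of TWIST1, 27 of ZEB2 and 12 of NGFR, a receptor gene of the crest. Of the 15 genes of the neural crest list 8 had a UMI in it, SOX9 with 1, and PAX7, ETS1, MSX2, ZIC1, DLX5, ERBB3 and RXRG were at 0, though ZIC1 was detected in 13090 cells. The members SNAI1, MSX1 and PRRX1 were at 0 as well. SOX2, PAX6, LHX2 and HES5, all genes of neural progenitors, were at 0 in it, though SOX2 was detected in 13573 cells. ZEB1, detected in 12945 cells, had 1 UMI and FN1 had 1. In all, 8 kept cells held 2 or more of these 5 genes, and each of the 8 lay among the other cells.

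Genes most like each member were found in the cells at even positions of the barcode order, by the ratio of their level in cells with a UMI of the member to that in cells without, and were read in the odd cells. Of 30 such pairs of a member and a gene, 26 were at least 2-fold in the odd cells, and 27 had an interval above 1. Cells with a UMI of a rare gene are deeper and more often contractile, for example 45788 against 17766 UMIs at the median for TWIST1, and the part of depth and group in these ratios was not tested here. SNAI2 went with MYOCD, a coactivator of smooth muscle genes (12.4-fold, 9.15 to 17.0), CALCR, the calcitonin receptor gene (11.2-fold), and TM4SF18 (26.8-fold). TWIST1 went with TM4SF18 (17.5-fold) and COL13A1 (5.64-fold) but not beyond counting error with CRYAB (1.25-fold, 0.709 to 2.05), and SNAI1 with MYOCD (8.93-fold), NELL1 (2.99-fold) and TM4SF1 (2.84-fold). ZEB2 went with CALCR (13.5-fold, 8.96 to 21.1) and TM4SF1 (5.97-fold), and FN1 with CALCR (7.87-fold), F2RL1 (6.24-fold) and LINC01411 (2.73-fold). TFAP2A went with genes of newborn neurons, EBF2 (28.9-fold, 22.3 to 37.0), INSM1 (28.1-fold) and ELAVL4 (11.9-fold), and 30 of the 94 other cells with TFAP2A held EBF2. PRRX1 went with MSX2 (3.64-fold), MSX1 (2.29-fold) and NXPH1 (1.59-fold), and MSX1 with TM4SF18 (8.55-fold), TM4SF1 (5.48-fold) and THRB (2.14-fold). PAX3 went with CCBE1 (3.21-fold), ACSBG1 (3.16-fold) and CNBD1 (2.92-fold). ZEB1, which nearly all cells held, went with HAPLN1 (5.30-fold), while the intervals of MID2 (1.91-fold, 0.866 to 5.26) and SMOC2 (1.67-fold, 0.702 to 5.21) included 1.

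The same search within 1 group, added after the data were seen, removes the difference between groups but not that of depth or of the score within a group. In contractile cells the median was 46863 UMIs with ZEB1 and 12823.5 without, and in other cells 22433 with SNAI2 and 16279 without. The part of depth and score was not tested. Many of the pairs did not return in the odd cells. Of 21 pairs in contractile cells 12 had an interval above 1 there, 6 had one that included 1 and 3 had one below 1. Of 27 pairs in other cells the numbers were 17, 9 and 1, and of 15 pairs in TAGLN-high cells they were 6, 9 and 0. All 3 genes picked for SNAI1 failed in contractile cells (IL1RAPL2 0.389, ITGA4 1.18, TM4SF1 0.864) and in other cells (SGCZ 0.234, HIST1H4A 0.673, SGMS2 0.895), and CRYAB, picked for TWIST1, was at 0.334 (0.189 to 0.548) in contractile cells.

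Among the pairs that returned in contractile cells, SNAI2 went with MYOCD (5.67-fold, 3.88 to 8.48) and with CD44 (3.14-fold), a surface receptor of mesenchymal cells. TWIST1 went with COL3A1, a fibrillar collagen (6.29-fold, 5.06 to 7.80). Among other cells SNAI2 went with COL8A1 (6.88-fold) and PLAU (4.69-fold), MSX1 with PRDM1 (9.68-fold, 7.09 to 13.0), and PRRX1 with FGF17 (2.34-fold), a fibroblast growth factor gene. ZEB2 went there with EBF2 (2.64-fold), and TFAP2A with NHLH1 (24.1-fold). In TAGLN-high cells the pairs of at least 2-fold were ZEB2 with NTRK3 (2.94-fold), FN1 with CASC17 (2.25-fold) and PRRX1 with SFRP4 (2.05-fold).

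Other genes of these programmes were read from lists, as levels at 5000 UMIs a cell. The lists were chosen with earlier results of these data known. Each count of a list is to be read beside the shares of all genes, which were 7.2% higher and 24.1% lower between contractile and other cells and 3.16% and 9.05% between TAGLN-high and other cells. A gene that reached 50 UMIs only through the group in which it was high lends its count no support. Of 22 mesenchymal genes, 20 had 50 UMIs, and 12 were at least 2-fold higher and 2 lower in contractile than in other cells, with a median log2 ratio of 1.86 where the median of all genes was -0.35. The collagen gene COL1A1 was at 65.9 CPM in contractile and 3.09 CPM in other cells (21.3-fold, 17.9 to 25.5), the matrix gene TNC 15.8-fold, COL1A2 12.02-fold and COL3A1 10.8-fold higher. The 2 that were lower were TWIST2 and PRRX2. In TAGLN-high cells 5 of the 20 were higher (COL1A2, COL3A1, PDGFRB, VIM and SPARC) and 1 lower (TWIST2), and COL1A1 stood at 5.94 CPM, while TNC was at 2.68 CPM against 3.10 CPM in other cells.

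The neural crest list held genes on both sides. Of its 15 genes 11 had 50 UMIs, of which 4 were higher (7.2% of all genes) and 6 lower (24.1%) in contractile cells (median log2 -1.46), and 4 were higher (ETS1, MSX2, DLX5 and MEF2C in both groups) and 3 lower (SOX10, SOX9 and ERBB3) in TAGLN-high cells. ETS1 was at 33.9 CPM in contractile against 0.390 CPM in other cells (86.9-fold, 56.2 to 141) and MEF2C at 34.8 CPM against 4.75 CPM (7.32-fold), both of which also act in vessels and muscle. ETS1 and MSX2 reached the minimum of 50 UMIs only through the contractile and TAGLN-high cells. Their place among the 4 therefore lends no support to a difference. ZIC1, a gene of the dorsal neural tube, was at 59.1 CPM against 437 CPM (0.135, 0.123 to 0.148). SOX10, the defining gene of migrating crest, was at 0.261 CPM in contractile, 0.239 CPM in TAGLN-high and 0.853 CPM in other cells at full depth. FOXD3 had 3 UMIs and TFAP2B 19 in all kept cells. DLX5, named after its values were seen, was highest in TAGLN-high cells like PRRX1 and MSX1, at 79.4 CPM against 45.8 CPM in contractile and 16.3 CPM in other cells.

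Of 9 relatives of the members with 50 UMIs, 1 was higher and 4 were lower in contractile cells, counts too small to set apart from the 7.2% and 24.1% of all genes. MSX2 was 7.13-fold (4.11 to 12.4) higher in contractile than in other cells, and PRRX2, at 2.02 CPM against 11.3 CPM, was lower (0.179, 0.102 to 0.293), as were PAX7 (0.283) and TFAP2E (0.388). MSX2, the 1 that was higher, reached the minimum of 50 UMIs only through the contractile and TAGLN-high cells. PAX7 was at 82.5 CPM in TAGLN-high cells and 52.8 CPM in other cells, whereas its partner in the family, PAX3, was lower there. TWIST2, named after its values were seen, was at 1.64 CPM in contractile and 3.71 CPM in other cells, the reverse of TWIST1. TFAP2D and HAND1 had no UMI, which allows 3 UMIs over all kept cells.

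TGF-beta signals are the best known inducers of SNAI1, SNAI2 and ZEB2. Of 16 genes of this pathway 15 had 50 UMIs, of which 8 were higher and 1, TGFBR3, lower in contractile cells (median log2 1.11), against 7.2% and 24.1% of all genes, and 3 higher (TGFB2, BMP4 and LTBP1) and 2 lower (TGFBR3 and LTBP2) in TAGLN-high cells, against 3.16% and 9.05%. The ligand gene TGFB2 was at 178 CPM in contractile, 15.1 CPM in TAGLN-high and 7.24 CPM in other cells. BMP4, a ligand of the BMP branch, was at 25.8 CPM, 6.33 CPM and 0.798 CPM. It reached the minimum of 50 UMIs only through the contractile and TAGLN-high cells, so its place in these counts lends no support to a difference. LTBP2, which encodes a matrix protein of the latent TGF-beta binding family, was 8.87-fold higher in contractile than in other cells. Of 10 genes listed under fibronectin binding 8 had 50 UMIs, and 6 were higher and 0 lower in contractile cells. The list is broader than its name, since TNS1 encodes a protein inside the cell and not one that binds fibronectin. TNS1 was 5.70-fold, ITGA4 4.41-fold, ITGAV 4.07-fold and ITGA5, whose product forms the main fibronectin receptor with that of ITGB1, 2.92-fold (2.45 to 3.45) higher. In TAGLN-high cells 0 of the 8 were higher and 0 lower.

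Epithelial genes were also found on both sides. Of 20 listed genes 13 had 50 UMIs, and 4 were higher (CLDN4, CLDN6, KRT8 and KRT18) and 4 lower (OVOL2, RAB25, CLDN3 and KRT19) in contractile cells (median log2 0.05), against 7.2% and 24.1% of all genes. CLDN6, a claudin of early epithelia, was at 141 CPM in contractile, 41.4 CPM in TAGLN-high and 10.7 CPM in other cells (13.1-fold, 11.9 to 14.5), and the keratin genes KRT18 and KRT8 were 6.42-fold and 4.53-fold higher. RAB25 was lower, at 0.216 (0.0256 to 0.812). Of 9 genes of placodes and surface ectoderm 5 had 50 UMIs. GATA3 was at 8.10 CPM in contractile cells and 0.0532 CPM in other cells, where it rested on 3 UMIs (152-fold, 49.8 to 757). It reached the minimum of 50 UMIs only through the contractile and TAGLN-high cells, so its place among the 5 lends no support to a difference. EYA1, EYA2 and DLX3 were lower.

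The groups also differed in their contractile, progenitor and neuron genes. All 8 contractile genes were at least 2-fold higher in both the contractile and the TAGLN-high cells than in other cells, TAGLN among them, which had chosen the TAGLN-high cells. Of 10 progenitor genes, 7 were lower and 1, NES, was higher in contractile cells, with HES5 at 10.1 CPM against 221 CPM, SOX1 at 10.1 CPM against 63.8 CPM, LHX2 at 31.0 CPM against 179 CPM and OTX2 at 26.6 CPM against 116 CPM. Of 7 genes of newborn neurons 0 were higher and 5 lower, and at this depth ELAVL4, NEUROD1 and EOMES had no UMI in contractile cells.

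**Figure D5:**
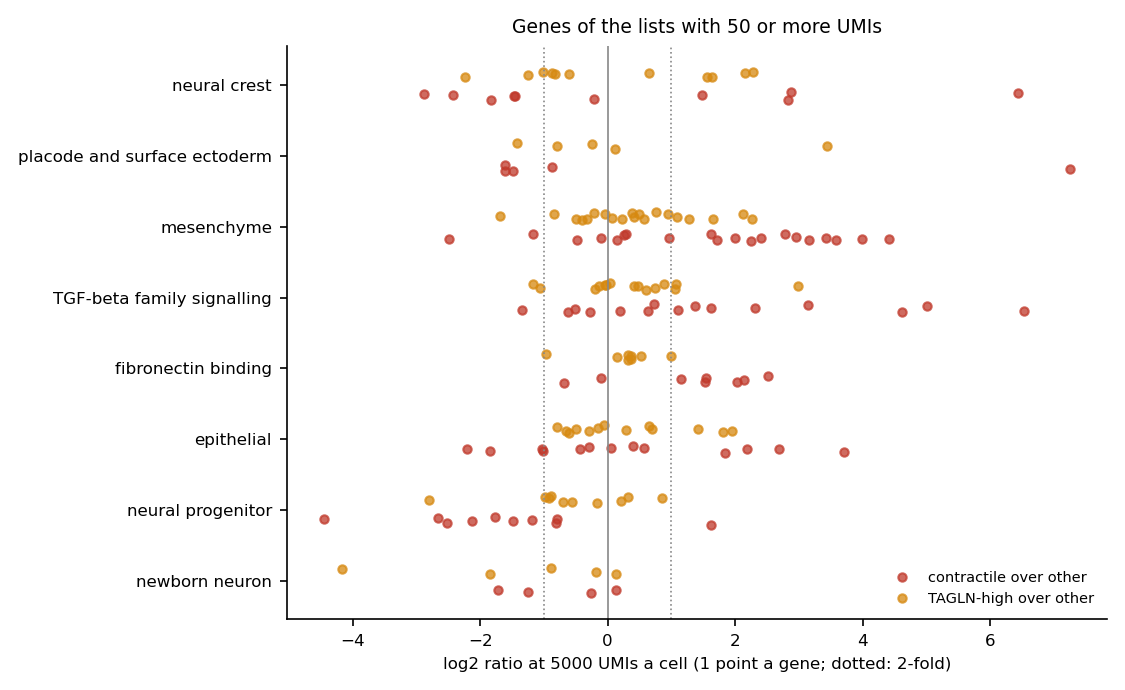
Log2 ratios at 5000 UMIs a cell of the genes of 8 lists with 50 or more UMIs, contractile over other cells (red) and TAGLN-high over other cells (orange), 1 point a gene, with genes at 0 UMIs in a group left out and 2-fold dotted. Genes listed under mesenchyme, TGF-beta and fibronectin binding spread to the right in contractile cells and less so in TAGLN-high cells, while neural crest and epithelial genes lie on both sides.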

How the data were processed

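Single-cell RNA-seq of 1 library (10x 3′ HT v3.1 chemistry) was analysed. The authors deposited counts, that is whole-number UMIs per gene and barcode with no normalization, made with Cell Ranger 7.0.1 on GRCh38 per the submitters' processing notes, which also name Seurat 4.4.0. The study ran Cell Ranger with default parameters and, for this library, states neither the annotation version nor the strandedness of counting. The filter on cells, which the study used to remove multiplets (2000 to 10000 genes, mitochondrial share below 0.1), was repeated and the groups follow fixed limits on ANXA1, TFPI2, CTGF and TAGLN.

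The 10 genes and all lists were chosen with earlier results of these data known. UMIs were summed over each group and divided by its total, with exact Poisson intervals, exact conditional intervals for ratios and Clopper-Pearson intervals for shares, all at 95%. Cells were thinned without replacement to 5000 or 10000 UMIs (seed 1), which left out 3, 1 and 24 contractile, TAGLN-high and other cells at 5000 and 55, 37 and 680 at 10000. Unthinned, 3.61% of other cells held a UMI of SNAI2. The means over all draws were computed from hypergeometric probabilities. All genes with at least 50 UMIs at 5000 UMIs a cell served as background. Near the limits lay 89 cells with a score of 4 to 5, 72 with 5 to 6, 185 with TAGLN at 8 to 10 and 130 with 10 to 12.

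Named genes are the 10 members, the 4 genes of each list farthest from a ratio of 1 between contractile and other cells, listed genes with no UMI, and the 3 genes most like each member (at least 200 UMIs in the even cells). A few genes named by this rule are not reported here. Where STMN2-high cells are given, those among the other cells (84 of 90) were used, a choice made after seeing the data. Scrublet's automatic threshold marked 0 of 13925 cells, so it did not work and no doublets were removed, and removal of the highest 8% of scores was tried as an alternative. Steps were checked on simulated counts. Python 3.11.15, numpy 2.4.6, scipy 1.17.1 and scanpy 1.11.5 were used.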

Additional observations from a re-analysis of the deposited data

How the results depend on the processing

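No paired analysis was possible because there was 1 library. With 1 library, intervals cover counting error only, and small groups of cells and rare genes limit what the depth can show. The number of members at least 2-fold higher in contractile than in other cells was 2, and 1 at 2500 UMIs a cell or as the mean over all draws (added after seeing the data, where SNAI1 had under 50 UMIs), and 6 in UMIs per cell at full depth, where the median of all genes was 1.03 on the log2 scale. This number was 3 with a contractile limit of 3, with median ratio scaling, without a UMI minimum or at a 1.5-fold limit. The number lower was 1, and 2 without a UMI minimum or at a 1.5-fold limit. Between TAGLN-high and other cells the number higher was 3, and 1 among cells with 15000 to 40000 UMIs or at a 3-fold limit. It was 2 at 2500 UMIs a cell, with a contractile limit of 3, as the mean of per-cell CPM or as the mean over all draws. It was 4 with a contractile limit of 10, a TAGLN limit of 20 or in UMIs per cell. The number lower was 1, and 2 with another seed or a 1.5-fold limit, and 0 with a TAGLN limit of 5 or 20, in UMIs per cell, with median ratio scaling or at a 3-fold limit. The share of cells with 3 or more members moved with depth: at 2500 UMIs it was 2.40%, 1.92% and 2.06% in contractile, TAGLN-high and other cells and at 10000 UMIs 34.3%, 22.0% and 26.8%. Another seed gave 10.1%, 4.89% and 8.64%, and leaving out FN1 2.91%, 1.25% and 1.13%. It was 9.78% in contractile cells with 3000 to 8000 genes, 10.5% in other cells with a mitochondrial share below 0.05, and 8.81% in other cells as the mean over all draws. Removal of the cells with the highest 8% of Scrublet scores moved none of these counts by over 1.5 times and none of these shares beyond its interval. The cause of the differences was not tested. Among the ratios of single members, 258 stayed within the counting interval and 42 left it, of 135 values for ratios of at least 2-fold 0 lay on the other side of 1, against 15 of 165 for smaller ratios, and of the counts over lists 592 stayed within 1.5 times and 128 did not.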
